A study of Mus musculus with 24 samples.

Results

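Clone A1 is a single-cell clone of mouse embryonic fibroblasts (MEFs) that lacks both LKB1 and CRTC2, and its untreated libraries were compared here with untreated wild-type (WT) MEFs to find which genes differed from WT at rest when both proteins were missing. Of the 24 RNA-seq libraries of the study, in 8 groups of 3, these 6 were chosen by their labels alone, 3 labelled as the DKO_A1 control and 3 as the WT control. All of the cells are 3T3 MEFs, an immortalized fibroblast type. WT MEFs and Lkb1-/- MEFs (deleted for Stk11, the gene that encodes LKB1) were established lines, and Crtc2 was disrupted by CRISPR in Lkb1-/- MEFs with guides against its first exon, after which single transfected cells were grown into the clones A1 and A2. Clone A1 is therefore 1 clone of a line that already lacked Lkb1. Untreated libraries of Lkb1-/- MEFs (genotype Lkb1-/-, Crtc2 intact) and of clone A2 (the same 2 genes disrupted), and the libraries of WT MEFs and clone A1 taken after 6 hours of IL-1β, are used below only to place the values of clone A1. No label says that the 3 libraries of a group came from separate cultures, so the tests measure the spread between these libraries, which may be technical.

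LKB1 is a serine/threonine kinase and tumor suppressor that activates AMPK and a family of AMPK-related kinases, including the salt-inducible kinases SIK1, SIK2 and SIK3. Active SIKs phosphorylate the CRTC coactivators, which keeps them bound to 14-3-3 proteins in the cytoplasm. Without LKB1 the CRTCs are free to enter the nucleus and bind CREB at the cAMP response element of target promoters, and CRTC2 is one of the 3 members of that family. Clone A1 lacks the kinase at the top of this route and one coactivator at its end, while CRTC1 and CRTC3 remain encoded in its genome.

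The promoters of CREB target genes that the comparison turns on are shown here because CREB, the partner of CRTC2, binds this element. They are windows from 250 bases before to 50 bases after the annotated start, from RefSeq on GRCm38.p6, read 5′ to 3′ on the strand of the gene. Capitals mark the 5-base core of the element, TGACG or its reverse complement CGTCA, searched on both strands.

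Nr4a1, chr15:101266596-101266895, plus strand: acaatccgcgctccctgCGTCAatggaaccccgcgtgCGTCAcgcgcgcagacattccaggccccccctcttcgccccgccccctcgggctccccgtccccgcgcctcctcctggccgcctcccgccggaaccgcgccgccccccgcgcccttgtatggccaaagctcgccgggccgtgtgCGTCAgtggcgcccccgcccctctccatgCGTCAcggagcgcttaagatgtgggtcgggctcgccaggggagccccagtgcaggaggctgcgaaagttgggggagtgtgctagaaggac
Rgs2, chr1:144004100-144004399, minus strand: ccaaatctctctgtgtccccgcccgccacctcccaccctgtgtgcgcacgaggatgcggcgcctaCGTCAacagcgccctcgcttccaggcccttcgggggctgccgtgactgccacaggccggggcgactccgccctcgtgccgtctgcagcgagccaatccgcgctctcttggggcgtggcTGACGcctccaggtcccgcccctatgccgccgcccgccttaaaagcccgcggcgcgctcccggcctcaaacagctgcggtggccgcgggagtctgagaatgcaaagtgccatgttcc
Pde4b, first of its 4 windows, chr4:102421305-102421604, plus strand: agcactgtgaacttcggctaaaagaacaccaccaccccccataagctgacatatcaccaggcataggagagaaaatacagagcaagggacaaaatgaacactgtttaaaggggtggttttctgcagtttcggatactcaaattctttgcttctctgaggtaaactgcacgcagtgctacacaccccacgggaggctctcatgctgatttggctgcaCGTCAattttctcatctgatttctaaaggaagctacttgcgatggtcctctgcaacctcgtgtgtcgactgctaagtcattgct
Ppargc1a, chr5:51567676-51567975, minus strand: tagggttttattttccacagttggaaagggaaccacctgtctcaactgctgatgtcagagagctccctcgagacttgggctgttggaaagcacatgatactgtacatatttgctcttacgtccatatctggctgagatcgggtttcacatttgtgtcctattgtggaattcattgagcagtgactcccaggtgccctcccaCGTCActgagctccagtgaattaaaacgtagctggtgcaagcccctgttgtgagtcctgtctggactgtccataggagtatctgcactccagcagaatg

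The Nr4a1 window holds the core 4 times, the Rgs2 window 2 times, and the Pde4b and Ppargc1a windows shown 1 time each. The other 3 windows of Pde4b and the window of Pde4d hold no core. The core alone occurs in 20.8% of the 32851 promoter windows of the table, and the whole element TGACGTCA, which overlaps both cores, in 1.79%. None of these 4 windows holds the whole element. The table had windows for 15 genes of the CREB target list, 19 windows in all, of which 14 held the core and 3 the whole element (Areg, Dusp1 and Sst). A match describes the letters of the window and shows no binding.

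Counts on genes ranged from 40011408 to 46677840 per WT library and from 39814837 to 44453613 per clone A1 library, within 38842901 to 48594394 over all 24. Values below are CPM, the counts of a gene scaled to 1 fixed total for every library, on library sizes adjusted by TMM, a normalization that assumes that most genes do not change. CPM is not divided by gene length, so levels are compared between libraries and not between genes. On the first principal component, which held 67.2% of the variance, the 6 WT libraries lay between -156 and -152 and all other libraries between 43 and 67. Replicate 1 stood apart in both groups: the chi-square per gene was 46.4 and 61.9 between WT replicate 1 and the other two and 13.8 between those, and 37.7 and 54.2 against 12.1 in clone A1. Fold changes below are log2 fold changes of clone A1 against WT from edgeR's quasi-likelihood test on all 24 libraries, given with their standard error (SE), and a gene is called when its Benjamini-Hochberg false discovery rate (FDR) over the 17522 genes tested is under 0.05. Means are given ± SD over n = 3 libraries, and counts given for a group are totals over its 3 libraries unless said to be per library.

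The summed level of 8 fibroblast markers was 5812 to 7069 CPM in WT and 6151 to 6597 CPM in clone A1, although Thy1 had at most 3 counts per library in either. Single markers differed in both directions: of the 7 tested, 3 were called higher in clone A1 (Dcn by 6.11, Pdgfra by 5.75 and Pdgfrb by 0.90) and 2 lower (Col1a2, -1.67, and S100a4, -1.62), beside 30.3% higher and 25.1% lower of all genes. Summed epithelial markers stayed at 0.783 CPM or below in every library, and the 1 tested, Epcam, had 4 counts in WT and 16 in clone A1 (1.92, FDR 0.04), a call lost without any one WT replicate or without clone A1 replicate 1 or 2. Haematopoietic markers summed to 11.8 to 14.4 CPM in WT and 11.8 to 14.9 CPM in clone A1, with at most 3 counts per library of Ptprc, Adgre1 and Cd3e in both groups. Of the 3 tested, 2 were called higher in clone A1: Cd68 (0.61, FDR 0.016), a call lost without clone A1 replicate 1 (FDR 0.084) or WT replicate 2 (FDR 0.11), and Lyz2, with 1 count in WT and 46 in clone A1. Cd14 did not pass (-0.30, FDR 0.067). Muscle markers summed to 1.75 to 3.22 CPM in WT and 0.620 to 0.696 CPM in clone A1, and of the 2 tested Acta1 fell from 281 counts to 23 and Des rose from 10 to 48. The other marker groups had higher sums in clone A1: cartilage and bone (114 to 117 CPM in WT, 279.9 to 287 in A1), neural (214 to 227 and 295 to 356), adipocyte (9.26 to 12.1 and 23.7 to 27.3) and endothelial (0.553 to 0.835 and 2.78 to 4.0). Of the genes in these lists, Sp7, Ibsp, Sox2, Sox10, Gfap, Adipoq, Plin1, Cdh5 and Emcn had at most 3 counts per library in both groups. Acan, Col2a1, Alpl, Tubb3, Stmn2 and Lpl were at or under that limit in WT alone, and Bglap in clone A1 alone. Called higher in clone A1 were 4 of the 5 tested for cartilage and bone, 2 of 4 neural, 3 of 4 adipocyte and 1 of 2 endothelial. In the neural list 1 gene was called lower, Map2 (-0.81, FDR 0.00032). Among the higher ones, Stmn2 had 3 counts in WT and 18713 in clone A1, Acan 6 and 4798, Lpl 3 and 629 and Tubb3 7 and 309, while Sox9 rose by 2.17 and Kdr by 2.98. The part of these markers in the results was not tested. In bulk RNA, fewer cells of a type and less RNA per cell cannot be told apart.

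Stk11 itself fell in clone A1. Its level was 84.6, 85.5 and 87.9 CPM in the WT libraries and 21.8, 21.6 and 20.7 CPM in clone A1 (log2 fold change -2.01, SE 0.069, FDR 9.2e-16), and 18.7, 17 and 16.3 CPM in Lkb1-/- MEFs. Every clone A1 library lay below every WT library, and some reads were still counted on the gene. Crtc2 was 61.2, 56.5 and 57.5 CPM in WT, 45.2, 41.1 and 42.4 CPM in clone A1 and 82.1, 79.1 and 82.3 CPM in Lkb1-/- MEFs. The groups did not overlap: Crtc2 fell by 0.45 against WT (SE 0.066, FDR 7e-06) and by 0.92 against Lkb1-/- MEFs (FDR 2.2e-09). CRISPR edits need not remove a transcript, so these counts neither check the loss of CRTC2 protein nor its sequence.

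Most of the tested genes differed between clone A1 and WT. Of 17522 genes, 5305 were higher in clone A1 (30.3%) and 4399 were lower (25.1%), and these 2 shares are the background for each list below that is set against WT. The median log2 fold change of all genes tested was 0.040, or 0.031 with genes low in one group set to their bound. Low means at most 3 counts in every library of the group, and the bound takes that group at 3 counts. Genes low in both groups were set to a change of 0. With a log2 fold change beyond 1 in size, 2772 genes were higher and 1251 lower, or 2686 and 1243 with such genes at their bound. The 3 clone A1 libraries all lay above, or all below, the 3 WT libraries for 5193 of the 5305 higher and 4316 of the 4399 lower genes. The calls rest on these same libraries, so the separation adds no support to them, and the share over all genes tested was not taken. WT had no counts at all for 367 of the higher genes, and clone A1 had none for 41 of the lower genes.

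**Figure D1:**
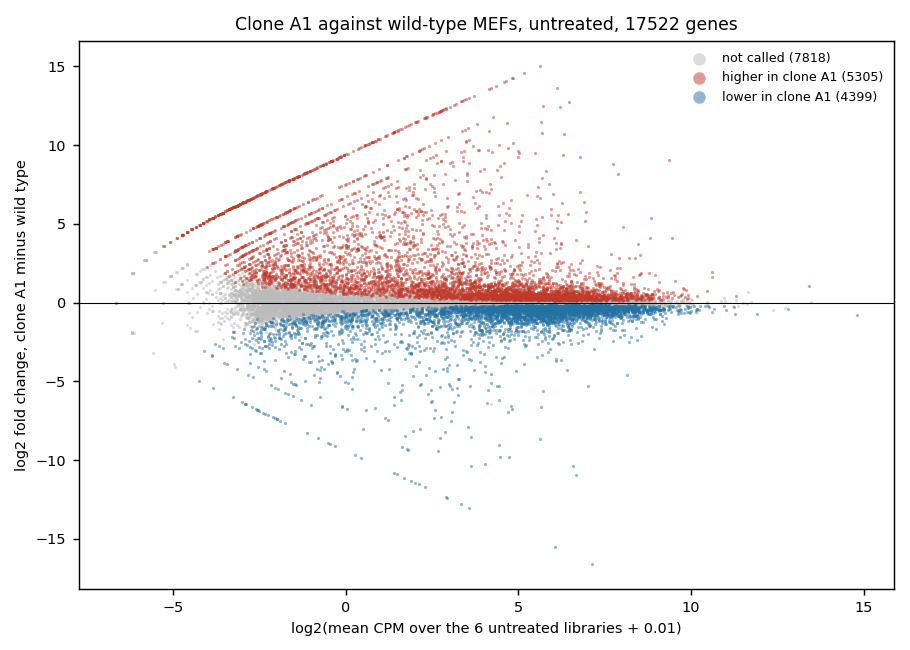
Each point is 1 of the 17522 genes tested, with its mean level over the 6 untreated libraries on the horizontal axis (log2 of CPM + 0.01) and the log2 fold change of clone A1 against WT on the vertical axis. Red points are the 5305 genes called higher and blue points the 4399 called lower in clone A1; the low-level genes at the far top and bottom include those without counts in one group, whose fitted fold changes depend on the prior count of the fit.

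The IL-1β libraries of the same lines, which share no library with the untreated ones, gave the same direction for most of these genes. There, 30.1% of the genes tested were higher and 26.9% lower in clone A1 than in WT. Of the 5305 genes higher at rest, 4694 (88.5%) were also called higher after IL-1β, where they made up 89.0% of 5273 such genes, and of the 4399 lower genes 3996 (90.8%) were also called lower, 84.9% of 4705. Only 2 genes in each direction were called the opposite way.

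Some of the differences were all-or-none, and the genes of the Y chromosome were among them. Eif2s3y, Uty and Kdm5d, which are encoded on the Y chromosome, had no counts in the 3 WT libraries. In clone A1, Eif2s3y was 61.8, 55.2 and 55.4 CPM, Uty 53.1, 56.3 and 59.1 CPM and Kdm5d 48.8, 50.7 and 51 CPM. At a floor of 3 counts per library these levels were at least 804-fold, 786-fold and 702-fold above WT. Ddx3y had 2 counts over the 3 WT libraries and 13398 over the clone A1 libraries, and 8 of the 9 Y-linked genes tested were higher. Lkb1-/- MEFs carried these genes too (62.1, 65.9 and 73.2 CPM for Uty). WT MEFs thus differ from Lkb1-/- MEFs and both clones in the presence of Y-linked RNA, so the genotype and the line of origin cannot be told apart in any comparison with WT, and this bears on each of the WT comparisons that follow.

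Among well-expressed autosomal and X-linked genes, those with the widest differences were likewise near 0 in one line. Higher in clone A1 were Fndc3c1, with 88.8, 101 and 107 CPM against no counts in WT (at least 1383-fold), Sfrp2, a secreted Wnt modulator (38.2, 64.8 and 41.6 CPM, at least 674-fold), Armcx4 (568-fold), Rgs17 (515-fold), Zfp422 (502-fold), Gabra3 (371-fold) and Rps6ka6 (334-fold), each of these folds a lower bound. Pde3b, a cyclic nucleotide phosphodiesterase, also belonged here and is described with the CREB targets. Lower in clone A1 was Hoxd13, a homeobox gene of the distal limb, with 265, 289 and 294 CPM in WT and no counts in clone A1 (at least 3958-fold lower), followed by the zinc finger gene Zfhx4 (at least 1896-fold), Klf12 (at least 335-fold) and Tmem47 (at least 284-fold). Fhl1, a LIM domain gene, fell from 205 ± 31.2 to 0.103 ± 0.0149 CPM, the proteoglycan gene Cspg4 (NG2) from 191 ± 9.32 to 0.144 ± 0.0895 CPM, and Nid2, a basement membrane nidogen, from 98.7 ± 15.3 to 0.241 ± 0.173 CPM. The phosphatase gene Dusp9 had 2 counts left over the 3 clone A1 libraries against 29.4, 21.2 and 24.5 CPM in WT.

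Differences were also spread unevenly over the chromosomes. The 706 tested genes of chromosome 15 had a median log2 fold change of 0.55, with 59.07% higher and 7.37% lower, and the 1098 genes of chromosome 1 a median of -0.43, with 14.48% higher and 48.45% lower. The other autosomes and the X chromosome had medians between -0.23 (chromosome 8) and 0.21 (chromosome 16). In Lkb1-/- MEFs and in clone A2 against the same WT libraries, chromosome 15 had medians of 0.40 and 0.61, and chromosome 1 of -0.29 and -0.38. Chromosomes 8, 17 and 19 had negative medians in clone A1 (-0.23, -0.13 and -0.20) and positive ones in Lkb1-/- MEFs (0.17, 0.26 and 0.12). Chromosomes 9, 11, 12 and 18 had the reverse (0.17, 0.16, 0.11 and 0.17 in clone A1, -0.12, -0.13, -0.12 and -0.023 in Lkb1-/- MEFs). For clone A1 directly against Lkb1-/- MEFs, the medians of the autosomes and the X chromosome ran from -0.38 (chromosome 17) to 0.39 (chromosome 10). This bears on the gene comparisons with Lkb1-/- MEFs below.

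**Figure D2:**
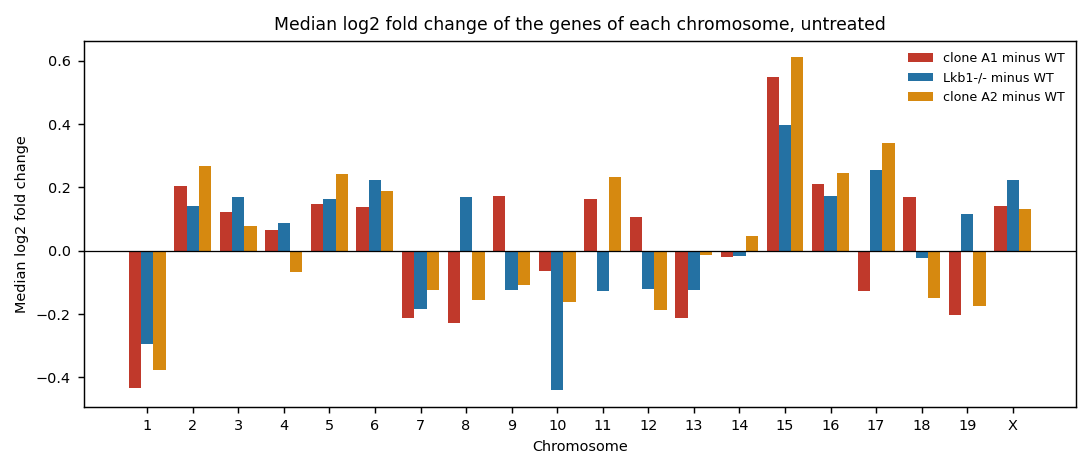
Bars give the median log2 fold change of the tested genes of each chromosome in clone A1 (red), Lkb1-/- MEFs (blue) and clone A2 (orange), each against the same 3 untreated WT libraries. Chromosome 15 has a raised median (0.55 in clone A1) and chromosome 1 a lowered one (-0.43) in every bar, while chromosomes 8, 17 and 19 are below 0 in clone A1 and above 0 in Lkb1-/- MEFs and chromosomes 9, 11, 12 and 18 the reverse; the Y chromosome and the mitochondrial genome are not drawn.

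Of the 18 tested CREB target genes (of 20), 11 were lower in clone A1 than in Lkb1-/- MEFs and 8 differed from WT. In clone A1, 6 were higher and 2 lower than in WT, with a median log2 fold change of 0.18. Against the same WT libraries, 14 were higher and none lower in Lkb1-/- MEFs (median 1.14, beside 30.1% higher and 25.8% lower of all genes), and 10 were higher and 3 lower in clone A2 (median 0.49, beside 32.7% and 27.9%). Tested directly, none was higher and 11 were lower in clone A1 than in Lkb1-/- MEFs (median -0.66), where 18.9% of all genes were higher and 16.4% lower. Against clone A2, 4 were higher and 5 lower (16.7% and 15.8% of all genes), counts that came to 2 and 2 without clone A1 replicate 1 or 2 or clone A2 replicate 3, to 2 and 4 without clone A1 replicate 3, to 2 and 6 without clone A2 replicate 1 and to 3 and 3 without its replicate 2.

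Nr4a1, an orphan nuclear receptor and immediate early gene, was at 6.72, 5.92 and 4.56 CPM in WT, 4.41, 4.39 and 4.18 CPM in clone A1 and 12.2, 8.96 and 9.55 CPM in Lkb1-/- MEFs. All clone A1 libraries lay below all WT libraries, which in turn lay below all Lkb1-/- libraries, and the difference from WT was at the threshold (log2 fold change -0.41, SE 0.17, FDR 0.048). This call was lost without WT replicate 1 or 2 or without any one clone A1 replicate (FDR up to 0.23 over all alternatives), whereas the difference from Lkb1-/- MEFs was -1.24 (FDR 7.7e-06). The related receptors Nr4a2 (log2 fold change 0.20, FDR 0.42) and Nr4a3 (0.021, FDR 0.97) did not pass against WT and were lower than in Lkb1-/- MEFs by 1.16 and 1.90 (FDR 0.00012 and 0.0002).

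Sik1, a CREB target that encodes one of the kinases of this route, was 21.9, 20.1 and 23.6 CPM in WT, 21.7, 25.8 and 26 CPM in clone A1 and 44.3, 45.1 and 46.6 CPM in Lkb1-/- MEFs. WT and clone A1 overlapped (log2 fold change 0.16, SE 0.14, FDR 0.34), and both lay below every Lkb1-/- library (-0.89 for clone A1, FDR 3.9e-05). Crem, a cAMP-responsive modulator of CREB activity, fell from 7.95 ± 0.295 to 5.7 ± 0.483 CPM (-0.48, FDR 0.0059). The EGF receptor ligand gene Areg had a log2 fold change of -1.07 against WT that did not pass (FDR 0.083; 0.043 without WT replicate 2) and was lower than in Lkb1-/- MEFs by 3.53 (FDR 5.8e-06).

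The other 6 called members stayed above WT in clone A1, and 3 of them, Pde3b, Pde4b and Pde4d, encode enzymes that break down cAMP. Pde3b had 1 count over the WT libraries and 126, 142 and 152 CPM in clone A1, below the mean of 258 ± 39.4 CPM in Lkb1-/- MEFs (-0.88, FDR 5.8e-05). Pde4b was 2.88, 3.91 and 4.46 CPM in WT, 78.7, 92.8 and 89 CPM in clone A1, 183, 198 and 201 CPM in Lkb1-/- MEFs and 103, 122 and 116 CPM in clone A2. It rose against WT by 4.54 (SE 0.18, FDR 6.9e-15) and fell by 1.16 against Lkb1-/- MEFs (FDR 2.6e-06), with no overlap in either direction. Rgs2, which dampens G protein signalling, was 1.38, 1.24 and 0.60 CPM in WT and 4.66, 5.5 and 4.27 CPM in clone A1 (2.14, SE 0.24, FDR 1.4e-07), and 11.7, 12 and 9.76 CPM in Lkb1-/- MEFs (-1.21 for clone A1, FDR 0.00013). Ppargc1a, the mitochondrial coactivator PGC-1α, had 2 counts in WT and 2.41, 2.5 and 2.21 CPM in clone A1. Pde4d rose from 45.2 ± 2.71 to 119 ± 9.77 CPM (1.40, FDR 3.4e-07) and Gem, a small GTPase, from 15.6 ± 2.34 to 29.3 ± 1.47 CPM (0.91, FDR 3.1e-06).

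**Figure D3:**
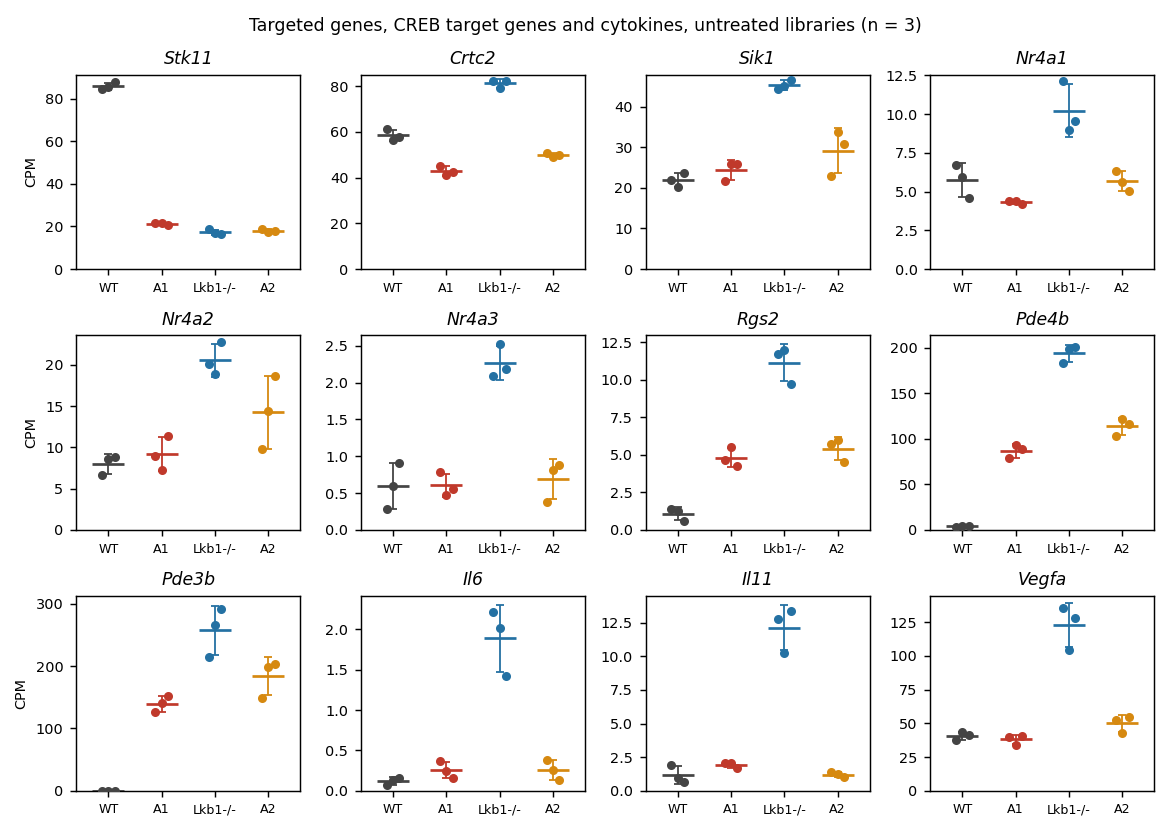
Each panel gives 1 gene, with the CPM of every untreated library as a point, the group mean as a line and ± 1 SD as a bar (n = 3), for WT, clone A1, Lkb1-/- MEFs and clone A2. Sik1, Nr4a1, Il6 and Vegfa of clone A1 lie near WT and below Lkb1-/- MEFs, whereas Pde4b and Pde3b of clone A1 lie between the 2 lines.

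The other genes of the route moved in both directions. Among the coactivators and CREB factors, 3 of 8 were higher and 4 lower (median -0.14): Crtc1 rose by 0.43 (FDR 3.4e-05), the coactivator gene Ep300 by 0.36 (FDR 4.5e-05) and Atf1 by 0.30 (FDR 1.3e-05), while Crtc3 fell by 0.69 (FDR 9.2e-05) and Creb1 from 147 ± 2.73 to 92.7 ± 11.7 CPM (-0.66, FDR 2.2e-05). Of 17 tested genes of the LKB1 complex and its downstream kinases, 2 were higher and 8 lower (median -0.15). The lower ones included both forms of the scaffold MO25, Cab39 (-0.75) and Cab39l (-0.77), the pseudokinase gene Stradb (-0.84) and the kinase genes Mark2 (-0.94) and Nuak1 (-0.70). Brsk1 rose by 1.57, and Mark1, with no counts in WT, was at least 23.1-fold higher. Sik2 did not pass (-0.098, FDR 0.43). The small changes of Sik3 (-0.17, FDR just under 0.05) and Prkaa1, an AMPK subunit (-0.15, FDR 0.048), lost their call when single libraries of either line were left out, with FDR of 0.069 to 0.21 and 0.074 to 0.12.

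Il6 and the cytokine genes of its family were low in clone A1. Il6 was 0.067, 0.138 and 0.157 CPM in WT, from 15 counts in all, and 0.366, 0.24 and 0.161 CPM in clone A1, from 32 counts, and the groups were not told apart by the test (log2 fold change 1.08, SE 0.63, FDR 0.16). In Lkb1-/- MEFs it was 2.22, 2.02 and 1.43 CPM, above every clone A1 library (-2.88 for clone A1, SE 0.38, FDR 4.8e-06). Il11 was 1.92, 0.944 and 0.678 CPM in WT, 2.07, 2.04 and 1.68 CPM in clone A1 and 12.8, 10.2 and 13.4 CPM in Lkb1-/- MEFs. It missed the threshold against WT (0.69, FDR 0.056), passed it without WT replicate 1 (1.24, FDR 0.0013), and was lower than in Lkb1-/- MEFs by 2.65 (FDR 2.8e-07). Lif (0.14, FDR 0.45) and Clcf1 (0.15, FDR 0.64) did not pass against WT. Of 7 tested ligands of the family, 2 were higher than in WT and none lower, with a median of 0.54, and Cntf, a ciliary neurotrophic factor gene, rose by 0.54 (FDR 0.027). The call of Cntf was lost without clone A1 replicate 2 or 3 or WT replicate 1 or 3.

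Receptors and signal transducers of the same family changed in both directions, 6 higher and 6 lower of 15 (median -0.22). Osmr, the oncostatin M receptor, rose from 28.6 ± 2.82 to 158 ± 4.5 CPM (2.46, FDR 2.1e-12), and Il11ra1 rose by 1.19 while Il6ra fell by 1.37. Socs2, a feedback inhibitor of STAT5 signalling, fell from 35.4 ± 0.875 to 1.52 ± 0.298 CPM (-4.54, FDR 1.6e-12), and Socs3, the inhibitor of gp130 signalling, rose from 20.6 ± 1.58 to 36 ± 5.04 CPM (0.81, FDR 0.011). Stat5a rose by 1.03 and Stat5b fell by 0.93, and the shared receptor gene Il6st (-0.26, FDR 0.15) and Stat3 (-0.22, FDR 0.32) did not pass.

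Chemokine genes were mostly higher in clone A1, 12 of 20 tested against 2 lower, with a median log2 fold change of 1.48 (1.26 with genes at their bound). Ccl2, which recruits monocytes, was 78.1, 86.6 and 84.3 CPM in WT, 567, 649.6 and 547 CPM in clone A1 and 189, 219.7 and 166 CPM in Lkb1-/- MEFs. Clone A1 lay above both lines in every library, by 2.82 over WT (SE 0.11, FDR 6.9e-15) and by 1.62 over Lkb1-/- MEFs (FDR 4.7e-10), and above clone A2 by 1.05 (FDR 1.7e-07). Cxcl12, the ligand of CXCR4, was 1.88, 1.68 and 1.51 CPM in WT and 177, 238 and 247 CPM in clone A1 (7.02, SE 0.35, FDR 3.5e-13). Ccl7, a neighbour of Ccl2 that could share reads with other chemokine genes, rose from 17.9 ± 2.95 to 503 ± 42 CPM (4.81, FDR 1.2e-15). The neutrophil chemokine genes Cxcl5 (3.83) and Cxcl1 (1.64) rose as well. Cxcl14, with no counts in WT, reached 8.68, 9.03 and 12.3 CPM in clone A1 (at least 140.1-fold). In the other direction, Ccl20 had 124 counts in WT and 1 in clone A1, and the fall of Cxcl10 (-1.27, FDR 0.0085) did not pass without WT replicate 3 (-0.78, FDR 0.096).

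Growth factors and cytokines of other families followed, with 14 of 22 higher and 2 lower (median 2.75, or 1.93 at the bound), 1 lower without clone A1 replicate 3 or WT replicate 1. Fgf7, the keratinocyte growth factor, rose from 1.05 ± 0.335 to 127 ± 13.3 CPM (6.91, FDR 5.9e-17), Inhba, the activin A subunit, from 2.27 ± 0.317 to 89.5 ± 2.14 CPM (5.29, FDR 5.2e-17), the ErbB ligand gene Nrg1 from 10.2 ± 1.03 to 140.1 ± 12.6 CPM (3.78) and Csf1, the macrophage colony-stimulating factor, from 191 ± 17 to 699.8 ± 109.7 CPM (1.87). Tnfsf11, which encodes RANKL, had no counts in WT, 7.95, 7.13 and 4.78 CPM in clone A1 and a mean of 52.2 ± 6.95 CPM in Lkb1-/- MEFs, so that it was at least 92.7-fold above WT and lower than in Lkb1-/- MEFs by 2.98 (FDR 1e-06). Its decoy receptor gene Tnfrsf11b was likewise at 0 in WT (at least 53.9-fold higher). Vegfa, the vascular growth factor, was 37.3, 43.5 and 41.1 CPM in WT and 39.7, 34.1 and 40.4 CPM in clone A1 (-0.095, FDR 0.62), against 136, 104 and 128 CPM in Lkb1-/- MEFs (-1.69 for clone A1, FDR 4.4e-08).

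The NF-κB and IL-1 list had 7 higher and 3 lower genes of 18 (median 0.079), or 6 and 5 without WT replicate 3. Its feedback inhibitors were among the higher ones: Tnfaip3 (A20) was 16.9, 17.9 and 15.9 CPM in WT and 60, 71.9 and 53.4 CPM in clone A1 (1.87, SE 0.13, FDR 1.5e-10), and Nfkbia (IκBα) rose from 55.8 ± 6.72 to 124 ± 16.3 CPM (1.15, FDR 2.4e-08). Both were also above Lkb1-/- MEFs, by 1.27 (FDR 2.4e-07) and 0.83 (FDR 8e-06), and Tnfaip3 above clone A2 by 1.49 (FDR 4.1e-08). Il1rn, the IL-1 receptor antagonist, had 13 counts in WT and 2.81, 3.1 and 8.2 CPM in clone A1 (5.48, SE 0.76, FDR 2.7e-06). The receptor gene Il1r1 (0.16, FDR 0.36) and the adaptor gene Myd88 (-0.11, FDR 0.44) did not pass, while Il1rap rose by 0.78 and Irak1 fell by 0.63.

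Genes of the extracellular matrix were called higher more often than lower. Of 21 tested collagen genes 12 were higher and 4 lower (median 1.20), and of 19 other matrix genes 14 were higher and 2 lower (median 1.96), or 1 lower without clone A1 replicate 1 or WT replicate 3. Bgn, the small proteoglycan biglycan, was 1.56, 3.43 and 2.5 CPM in WT and 1318, 1445 and 1231 CPM in clone A1 (9.06, SE 0.25, FDR 2.9e-17). The 3 chains of collagen VI, a microfibril of the pericellular matrix, rose together, Col6a1 from 0.942 ± 0.461 to 429.5 ± 34.9 CPM (8.82), Col6a2 by 9.27 and Col6a3 from 0.235 ± 0.0478 to 156 ± 7.91 CPM (9.35). The 2 main chains of collagen IV, the network of basement membranes, fell together, Col4a1 from 583 ± 29.5 to 113 ± 9.26 CPM (-2.37, FDR 3.2e-13) and Col4a2 from 365 ± 22.7 to 67.5 ± 3.08 CPM (-2.43, FDR 5.4e-13). The 2 chains of collagen I differed: Col1a2 fell from 780.1 ± 165 to 246 ± 41.3 CPM (-1.67, FDR 2.9e-05) and Col1a1 did not pass (0.18, FDR 0.48).

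Among the other matrix genes, the proteoglycan genes Vcan and Dcn rose from 1.63 ± 0.0985 to 476 ± 119 CPM (8.19) and from 0.411 ± 0.0653 to 28.6 ± 7.76 CPM (6.11), with higher means still in Lkb1-/- MEFs (1566 ± 227 and 218 ± 12.1 CPM). Fn1, fibronectin, rose from 639.8 ± 65.5 to 2485 ± 197 CPM (1.96, FDR 3.7e-11) and the collagen crosslinking enzyme gene Lox from 764 ± 189 to 2394 ± 333 CPM (1.65, FDR 3.9e-05). Fbln5, which organizes elastic fibres, fell from 36.3 ± 9.53 to 1.06 ± 0.121 CPM (-5.09, FDR 7.2e-13), while Fbln1 rose by 4.93.

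Matrix proteases and their inhibitors had 14 of 16 genes higher in clone A1 and none lower, with a median of 1.56. Mmp2, a gelatinase, rose from 0.0957 ± 0.0473 to 161 ± 37.1 CPM (10.69, FDR 3.2e-13), Mmp3, stromelysin, from 2.87 ± 0.337 to 139 ± 42.4 CPM (5.59, FDR 5.8e-12), Mmp9 by 5.46, Mmp13 by 4.82 and the procollagen peptidase gene Adamts2 by 3.73. The inhibitor gene Timp3 rose from 50.5 ± 7.15 to 851 ± 136 CPM (4.08, FDR 5.4e-14).

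Contractile genes were lower more often than higher, 5 against 2 of 10 (median -0.45), although 3 were lower and 3 higher without clone A1 replicate 3, and 3 lower and 2 higher without WT replicate 2. Acta2, smooth muscle actin, was 434, 727 and 476 CPM in WT and 21.1, 29.6 and 17.9 CPM in clone A1 (-4.58, SE 0.31, FDR 4.7e-11), and 16.6, 19.6 and 11.4 CPM in Lkb1-/- MEFs. Every clone A1 library was far below every WT library. Cnn2, a calponin, fell by 0.93 (FDR 8.7e-06), the fall of the light chain gene Myl9 (-0.84, FDR 0.011) was lost without WT replicate 2 (FDR 0.089) or clone A1 replicate 3 (FDR 0.062), and Tpm1 rose from 704 ± 11.2 to 1026 ± 103 CPM (0.55, FDR 5.8e-06). Against Lkb1-/- MEFs, 6 of the 10 genes were higher in clone A1 and none lower (median 1.11), beside 18.9% higher and 16.4% lower of all genes.

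**Figure D4:**
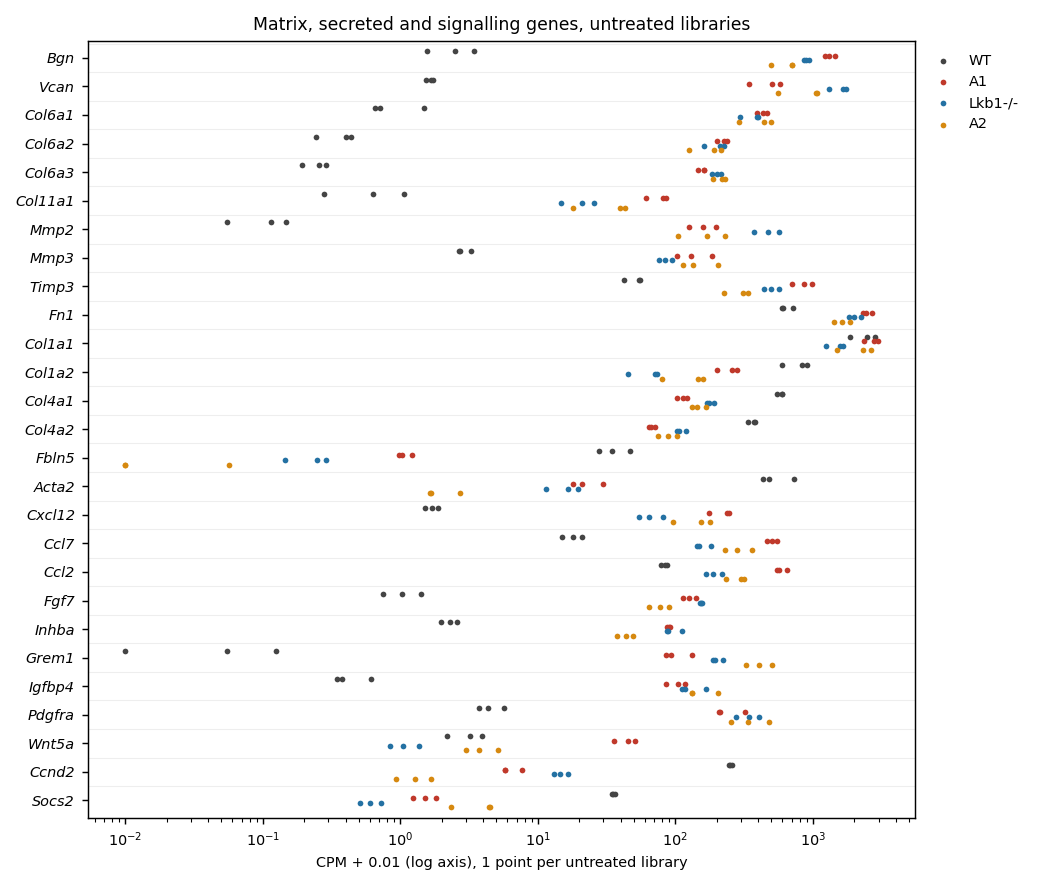
Every point is 1 untreated library, on a log axis of CPM + 0.01, for genes of the matrix, secreted factors and growth control (WT dark grey, clone A1 red, Lkb1-/- MEFs blue, clone A2 orange). Bgn, Col6a1 and Mmp2 of clone A1 lie far to the right of WT, Col4a1, Fbln5, Acta2, Ccnd2 and Socs2 lie to the left, and Wnt5a of clone A1 lies to the right of the other 3 lines.

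The homeobox genes of the HoxD cluster differed together. Hoxd8, Hoxd10, Hoxd11 and Hoxd13 had 8.63 ± 0.636, 8.08 ± 0.674, 15.4 ± 2.15 and 282 ± 15.7 CPM in WT and no counts in clone A1, Hoxd4 had 36 counts in WT and none in clone A1, and Hoxd9 had 71 and 1. Of the 39 Hox genes of the list 17 were tested, 4 higher and 7 lower (median 0.016, or -0.19 with unstranded counts), and the HoxA genes moved in both directions, with Hoxa4 (1.35) and Hoxa11 (1.05) higher and Hoxa7 (-0.77) lower. Among 19 transcription factor genes of mesenchyme, 9 were higher and 5 lower (median 0.23). Osr1, a regulator of limb connective tissue, rose from 2.35 ± 0.0775 to 101 ± 2.05 CPM (5.42, FDR 1.6e-17), Foxf1 by 4.60, and the mesenchymal transition factors Snai2 and Snai1 by 2.39 and 1.78. Foxc2 fell by 1.97.

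The TGF-β superfamily list had 10 higher and 5 lower genes of 22 (median 0.25), or 10 and 3 without clone A1 replicate 1. Gdf5, a joint-forming BMP ligand, had no counts in WT and a mean of 21.5 ± 5.73 CPM in clone A1 (at least 301-fold). The BMP antagonist gene Grem1 rose from 0.0533 ± 0.058 to 103 ± 24.5 CPM (10.79, FDR 5.9e-15) and Bmp2 from 1.42 ± 0.447 to 35.5 ± 9.2 CPM (4.64, FDR 7e-08). The receptor gene Tgfbr2 (1.67, FDR 4.3e-10) and its effector gene Smad3 (1.23, FDR 5e-05) also rose.

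Wnt pathway genes were higher in 10 and lower in 3 of 18 (median 1.05, or 0.68 at the bound). Wnt5a, a non-canonical ligand, was 2.19, 3.91 and 3.18 CPM in WT, 35.9, 44.9 and 51.1 CPM in clone A1, 0.838, 1.04 and 1.36 CPM in Lkb1-/- MEFs and 3.0, 3.7 and 5.11 CPM in clone A2. Clone A1 stood above all other lines, by 3.83 over WT (SE 0.26, FDR 4.2e-11), 5.35 over Lkb1-/- MEFs (FDR 2.5e-11) and 3.48 over clone A2 (FDR 1.8e-09). The β-catenin target and feedback gene Axin2 was 0.893, 1.08 and 0.704 CPM in WT and 5.78, 4.78 and 8.04 CPM in clone A1 (2.79, SE 0.28, FDR 2.7e-08), and lower in Lkb1-/- MEFs (0.386 ± 0.0793 CPM; 3.99 for clone A1, FDR 5e-09). The transcription factor genes Lef1, from 0.219 ± 0.0617 to 15.2 ± 2.26 CPM (6.08), and Tcf7 (2.71) rose, as did the secreted antagonist genes Sfrp2, given above, and Dkk2, with 3 counts in WT and 13.5 ± 2.07 CPM in clone A1.

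For the IGF and PDGF axes, 9 of 13 genes were higher and 3 lower (median 1.55). Pdgfra, the receptor of fibroblast progenitors, rose from 4.58 ± 0.997 to 246 ± 64.7 CPM (5.75, FDR 1.9e-12), Igfbp4, an IGF-binding protein, from 0.434 ± 0.144 to 103 ± 16.7 CPM (7.90, FDR 2.6e-13) and the ligand gene Pdgfb by 3.69. Igfbp3 had no counts in WT (at least 41.1-fold higher).

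Cell cycle genes were lower in 10 and higher in 5 of 22 (median -0.15), with 3 higher when clone A1 replicate 3 or any 1 WT replicate was left out, and cyclin D genes fell the most among those named here. Ccnd2 was 258, 251 and 246 CPM in WT and 7.66, 5.79 and 5.72 CPM in clone A1 (-5.30, SE 0.28, FDR 1.1e-12), and Ccnd1 fell from 329 ± 4.88 to 120.3 ± 24.7 CPM (-1.45, FDR 4.9e-05). Ccne1, cyclin E1, fell by 1.01, and E2f1 (0.89) and the topoisomerase gene Top2a (0.89) rose. The proliferation marker gene Mki67 fell by 0.27 (FDR 0.0027). In the list of p53 targets and the INK4-ARF locus, 3 of 15 were higher and 9 lower (median -0.38). The cell cycle inhibitor gene Cdkn1a (p21) fell from 30.2 ± 10.8 to 4.37 ± 0.586 CPM (-2.79, FDR 3.9e-09) and the BH3-only gene Bbc3 by 1.16, while Fas, Cdkn2b and Cdkn2a rose by 1.47, 1.16 and 1.02.

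Interferon-stimulated genes were lower in clone A1, 12 of 22 against 1 higher (median -1.43), and WT replicate 3 was high for them. Irf7, the master regulator of the interferon response, was 1.43, 2.42 and 14.8 CPM in WT and had 1 count over the clone A1 libraries. Oas2 was 0.781, 1.45 and 13.3 CPM in WT and had 7 counts in clone A1, Rsad2 (viperin) was 3.57, 5.71 and 19.6 CPM in WT and 0.293, 0.456 and 0.414 CPM in clone A1 (-4.62, SE 0.66, FDR 4.2e-06), and Ifi44 was 2.46, 6.33 and 36.4 and 0.78, 1.1 and 1.03 CPM (-3.94, SE 0.84, FDR 0.00043). Without WT replicate 3, the list had 7 lower and 1 higher gene, and Ifi44 fell by 2.21 (FDR 0.01) in place of 3.94. After IL-1β, where other libraries were compared, 21 were lower. Gbp2, a guanylate-binding protein, was the higher one at rest (2.74, FDR 0.00069). Of 11 genes of MHC class I presentation, 1 was higher, the transactivator gene Nlrc5 (2.13, FDR 1.6e-06), and 3 were lower, of which H2-D1 fell by 0.54 (FDR 0.001). The calls of H2-K1 and Erap1 were lost without clone A1 replicate 1, and that of H2-K1 also without WT replicate 3. The 3 lower genes of this list became 1 without clone A1 replicate 1 and 5 without WT replicate 1.

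Genes of sterol and fatty acid synthesis and uptake were lower in 9 and higher in 2 of 19 (median -0.36), with 1 higher without clone A1 replicate 3 or WT replicate 1. Hmgcs1, at the entry of the mevalonate pathway, fell from 652 ± 118 to 318 ± 50.8 CPM (-1.04, FDR 1.2e-05), the isomerase gene Idi1 by 1.02 (FDR 3.4e-05) and Dhcr7, the last step to cholesterol, by 1.17 (FDR 1e-08). Their transcription factor gene Srebf2 rose by 0.56 (FDR 6.4e-05). After IL-1β, 16 of the 19 were lower and none higher, or 14 and 1 without the stimulated clone A1 replicate 1.

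Glycolysis and hypoxia genes had 5 higher and 6 lower members of 20 (median 0.032, or -0.019 with unstranded counts). The entry steps fell: Slc2a1, the glucose transporter GLUT1, from 264 ± 29 to 102 ± 6.44 CPM (-1.37, FDR 6.9e-08) and Hk2, hexokinase 2, from 138 ± 6.7 to 42.7 ± 3.04 CPM (-1.69, FDR 1.2e-09). The phosphofructokinase genes Pfkm and Pfkp rose by 1.19 and 0.75, and the rise of Pdk1 (1.18, FDR 0.0094) was lost without WT replicate 1 (FDR 0.06). Against Lkb1-/- MEFs, 12 of the 20 were lower in clone A1 and none higher, beside 16.4% lower and 18.9% higher of all genes.

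Imprinted genes, which are expressed from 1 parental copy, were higher in 7 and lower in 3 of the 13 tested members of a list of 23 (median 0.56). Kcnq1ot1, the antisense RNA of the Kcnq1 domain, was 33, 33.9 and 30.6 CPM in WT and had 3 counts left in clone A1, with 9.78, 8.05 and 6.5 CPM in Lkb1-/- MEFs. Cdkn1c, a cell cycle inhibitor of the same domain, had 2 counts in WT and 20.7, 25 and 26.4 CPM in clone A1. Plagl1 and Sgce rose by 2.76 and 1.21, and the antisense RNA Airn fell by 1.28.

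In absolute level, the largest rises in mean CPM among called genes were those of Rn7sk, the small nuclear RNA that holds back P-TEFb (7011 ± 1784 to 14740.0 ± 4096 CPM; 1.07, FDR 0.0045), Fn1, Lox, Bgn and Cyp1b1, a cytochrome P450 target of the aryl hydrocarbon receptor (76.5 ± 8.08 to 1340.0 ± 95.9 CPM; 4.13, FDR 5e-16). The largest falls were those of Gm26917 and Gm42418, Eef1a1, the translation elongation factor (-0.39, FDR 0.00011), Hsp90ab1, the constitutive HSP90 (-0.71, FDR 3.1e-07), and Npm1, nucleophosmin (-0.61, FDR 0.00041). Gm26917 and Gm42418 are neighbouring genes of chromosome 17, annotated as long non-coding RNA, and their WT and clone A1 libraries overlapped. Gm26917 ranged from 22340 to 50820 CPM in WT and from 16980 to 25120 CPM in clone A1. The calls of Gm26917 (-0.78, FDR 0.045) and Gm42418 (-0.70, FDR 0.049) were lost without clone A1 replicate 1 or 3 and without WT replicate 2 or 3, with -0.47 and -0.43 without WT replicate 2.

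The direct comparison with Lkb1-/- MEFs, the line in which Crtc2 was disrupted, called 3303 genes higher and 2878 lower in clone A1, and that with clone A2, edited in the same genes, 2925 higher and 2767 lower. Among well-expressed genes, Wnt5a had the largest log2 fold change over Lkb1-/- MEFs, followed by Fam198b, with 39 ± 6.74 CPM in WT, 20.2 ± 2.85 in clone A1, 0.511 ± 0.0312 in Lkb1-/- MEFs and 0.0876 ± 0.0767 in clone A2 (5.30, FDR 2.8e-12), Ogn, the small proteoglycan osteoglycin (4.77, FDR 9.9e-08), and Col8a1 (3.66, FDR 7.9e-11). Ogn was lower than in WT (-1.07, FDR 0.015), a call lost without clone A1 replicate 1 (FDR 0.069) or WT replicate 3 (FDR 0.058). With a mean log2 CPM above 3 over the libraries of clone A1 and Lkb1-/- MEFs, the 4 genes furthest below Lkb1-/- MEFs were Cspg4 (-6.99, FDR 2e-12), Auts2, from 55.7 ± 1.39 CPM in WT and 23.1 ± 1.98 CPM in Lkb1-/- MEFs to 0.517 ± 0.111 CPM in clone A1 and 0.762 ± 0.226 CPM in clone A2 (-5.48, FDR 2.8e-13), the actin regulator gene Coro2a (-4.35, FDR 3e-09) and Hgf, hepatocyte growth factor, with 6 counts in WT, 1.34 ± 0.542 CPM in clone A1 and 27.1 ± 5.8 CPM in Lkb1-/- MEFs (-4.33, FDR 2.6e-08).

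**Figure D5:**
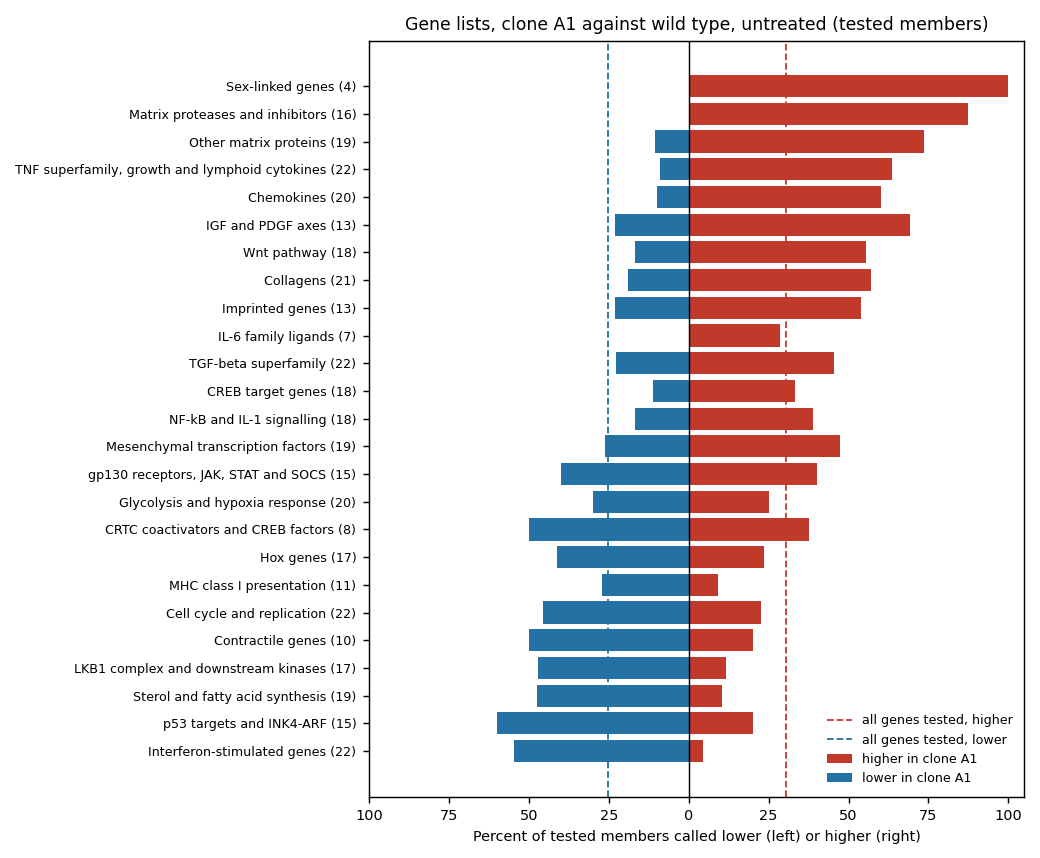
Bars to the right give the percent of the tested members of each gene list, cell type markers aside, that were called higher in clone A1 than in WT at rest, and bars to the left the percent called lower, with the number tested in parentheses. Dashed lines mark the shares over all genes tested (30.3% higher, 25.1% lower); matrix proteases and other matrix proteins reach furthest to the right, apart from the sex-linked genes, and p53 targets, interferon-stimulated genes and sterol genes reach far to the left.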

How the data were processed

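RNA was sequenced from 24 libraries of 3T3 MEFs in 8 groups of 3. Per the labels and the study's methods, the authors trimmed paired reads with Trim Galore 0.6.0, aligned them with STAR 2.7.8a to mouse genome build mm10 and deposited, for each library, a table of raw gene counts without and with regard to strand. The methods name a ribosomal RNA depletion kit and the labels a different mRNA kit, so which RNA classes were enriched is not settled. Counts of the second strand were used here, which made up 95.5% to 96.0% of stranded assignments. Lines that name no gene held 26.7% to 34.4% of pairs and were left out. Of 55471 gene identifiers, 55230 had a symbol in GENCODE M21 and 241 had none. The total count on genes was 38842901 to 48594394 per library, with a median of 42431965. No spike-in was used here, so the values are relative to the total RNA of a library.

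After filterByExpr (minimum count of 10 and total of 15) and TMM scaling, edgeR 4.0.16 (quasi-likelihood test, earlier form; limma 3.58.1, R 4.3.3) was run on the 24 libraries together, each group having its own coefficient. A gene was called at a Benjamini-Hochberg FDR under 0.05. The script was tested on simulated counts with known changes. A gene without counts in 1 group has a fold only as a bound, at 3 counts per library. The members and the gene lists were chosen with earlier results of these data known. Named genes are the targeted genes, the 12 called genes in each direction with the largest fold change among those averaging over 3 in log2 CPM whose groups did not overlap, the 5 in each direction with the largest difference of mean CPM and with no counts in 1 group, the 4 in each direction that differed most from Lkb1-/- MEFs, and of each list up to 6 called members with the largest fold change and those the study names. Other list members were chosen after their values were seen, and some genes that the rule names are not reported here. Genes with near-identical copies, overlapping genes and neighbouring chemokine genes are uncertain where reads could be shared. Alternatives were unstranded counts, other scalings (RLE and upper quartile), edgeR's newer method, no filter, at least 10 counts in every library, DESeq2 1.42.0, the 2 groups alone, the replicate number as a block and leaving out each library. Using replicates 2 and 3 only was added after seeing the data.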

Additional observations from a re-analysis of the deposited data

Results flagged for a closer look

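The difference between clone A1 and WT was itself compared between rest and IL-1β with edgeR's quasi-likelihood test, and 14 of 17522 genes differed at a Benjamini-Hochberg FDR under 0.05, 6 with a more positive and 8 with a more negative log2 fold change after IL-1β, while 709 had an unadjusted p under 0.05. In each case below, the value in parentheses is the log2 fold change of clone A1 over WT after IL-1β minus that at rest (means ± SD, n = 3).

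For some genes the gap at rest was the wider one. Ccl2 went from 83 ± 4.4 CPM at rest to 451 ± 29.5 CPM after IL-1β in WT and from 588 ± 54.2 to 1466 ± 41.8 CPM in clone A1 (-1.12, FDR 0.00089). C3, the central complement component, went from 3.82 ± 0.964 CPM at rest to 38.6 ± 9.72 CPM after IL-1β in WT and from 137 ± 20.3 to 233 ± 33.8 CPM in clone A1 (-2.58, FDR 0.0017), and Slc16a9, a monocarboxylate transporter gene, from 0.466 ± 0.157 CPM at rest to 5.35 ± 0.594 CPM after IL-1β in WT and from 6.35 ± 0.738 to 12.7 ± 0.798 CPM in clone A1 (-2.53, FDR 9.4e-05). The same sign was found for Rab15 (-2.64, FDR 0.00089), Chil1 (-2.75, FDR 0.0048), Rrad (-0.82, FDR 0.046) and Angptl4 (-1.65, FDR just under 0.05). Nod2, a sensor of bacterial peptidoglycan, had no counts in untreated WT and 0.958 ± 0.0633 CPM in untreated clone A1, so its fitted difference (-5.12, FDR 0.046) depends on the prior count of the fit and is no bound.

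For the others the gap was more positive after IL-1β. Afap1l2, an actin-associated adaptor gene, went from 3.62 ± 0.474 CPM at rest to 2.26 ± 0.245 CPM after IL-1β in WT and from 6.44 ± 0.402 to 14 ± 0.85 CPM in clone A1 (1.79, FDR 0.00026), and the T-box factor gene Tbx3 from 27.5 ± 0.945 CPM at rest to 24.3 ± 1.32 CPM after IL-1β in WT and from 17.6 ± 1.54 to 27.3 ± 1.77 CPM in clone A1 (0.81, FDR 0.002). Smaller or later-ranked differences of this sign were those of Dpy19l1 (0.70, FDR 0.0017), Gpr137b (0.84, FDR 0.002), Cpeb2 (1.24, FDR 0.031) and Plscr1 (0.53, FDR 0.022). The explanation of these differences was not tested.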

How the results depend on the processing

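Counts of called genes stayed within 1.5 times the main count under all 96 alternatives of the 6 comparisons. For clone A1 against WT at rest, 9704 genes became 8939 to 9347 with 1 library left out, and 7799 (at least 10 counts in every library) to 11251 otherwise, the latter under the replicate block. The share of higher genes among the called ones was 54.67% and ranged from 50.39% with unstranded counts to 62.03% with upper quartile scaling, which put the median log2 fold change of all genes at 0.13. With 1 library left out, the other comparisons ranged from 9085 to 9523 (Lkb1-/- MEFs against WT), 9949 to 10563 (clone A2 against WT), 5220 to 5626 (clone A1 against Lkb1-/- MEFs), 4732 to 6116 (clone A1 against clone A2) and 9237 to 9639 (clone A1 against WT after IL-1β). The blocked fit called 8424 genes in place of 6181 between clone A1 and Lkb1-/- MEFs. Between clone A1 and clone A2 it called 8104 in place of 5692. Deviations of same-numbered clone A1 and WT libraries correlated at 0.2274, 0.0489 and 0.1497, and each library correlated best with its own number. The main tests used no block and left this shared deviation in the spread. Replicate 1 also stood apart in untreated Lkb1-/- MEFs (chi-square per gene 53.3 and 57.1 against 9.18) and clone A2 (65.4 and 106 against 16.9). Under the block the CREB target list had 8 higher and 5 lower genes in place of 6 and 2. Other lists gained calls too. MHC class I presentation had 3 and 5 in place of 1 and 3, and NF-κB and IL-1 signalling 8 and 5 in place of 7 and 3. Mesenchymal transcription factors had 10 and 8 in place of 9 and 5, glycolysis and hypoxia 8 and 8 in place of 5 and 6, and the Wnt pathway 10 and 5 in place of 10 and 3.

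Of the genes followed, 201 of 221 values against WT and 106 of 128 against Lkb1-/- MEFs kept their direction and their side of the threshold wherever they could be tested. Signs turned for Clcf1, not called, without clone A1 replicate 1 (-0.086; leaving out single libraries gave up to 0.37, without WT replicate 1), for Nr4a3, not called, with unstranded counts (-0.087), without WT replicate 1 (-0.32, against up to 0.40 without WT replicate 3), without clone A1 replicate 1 (-0.20) and with replicates 2 and 3 only (-0.54), the last chosen after seeing the data, and for Epb41l4a against Lkb1-/- MEFs with unstranded counts (0.24). The cause was not tested. Of the interferon-stimulated genes, 12 were lower with all libraries, 7 without WT replicate 3 and 17 with replicates 2 and 3 only. A filter of 10 counts in every library gives no value for genes without counts in 1 line. Levels near the 3-count limit, such as those of Il6 in both lines, bound what this depth can show.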
